A study of Rattus norvegicus with 4 samples.

Results

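Transcripts of the transcription factors that build and maintain heart muscle were followed in cultured ventricular myocytes of newborn rats, plated either in uncoated dishes or in dishes coated with fibronectin. The factors were Gata4, Gata6, Nkx2-5, Mef2a, Mef2c, Mef2d, Tbx5, Hand1, Hand2 and Srf, 10 genes chosen by name. Every probe set, the group of oligonucleotide probes that together measure 1 transcript, was taken if the platform annotation gave it 1 of these symbols and no other. This gave 16 of the 15866 probe sets on the array, for 9 of the 10 genes, out of 10411 genes named there in all. Mef2a was named by no probe set in the annotation used here and was not analysed here. Gata4, Gata6, Mef2c, Mef2d, Hand1, Hand2 and Srf had 2 probe sets each, and Nkx2-5 and Tbx5 had 1 each.

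These proteins bind DNA and switch on the genes of the contractile apparatus, of calcium handling and of the natriuretic peptides. Gata4 and Gata6 are zinc finger proteins, Nkx2-5 is a homeodomain protein and Tbx5 a T-box protein, and they bind cardiac promoters together. The Mef2 proteins and Srf share the MADS DNA-binding domain, and Hand1 and Hand2 are basic helix-loop-helix proteins of the developing ventricles. In cultured myocytes Gata4, Mef2 and Srf are known as end points of the signalling that accompanies hypertrophic growth. Much of that control acts on the proteins, by phosphorylation or by release from histone deacetylases, and an mRNA array does not measure it.

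Control replicates 1 and 2 were plated without a coating, and fibronectin replicates 1 and 2 on fibronectin, a matrix glycoprotein that integrin receptors bind. All 4 cultures had medium with 10% serum for 24 h and serum-free medium for the following 48 h, and the labels name no other agent, strain or genotype. The cells are a primary preparation, and nothing in the labels says that arrays of a group came from separate preparations, so p-values cover only how these samples varied, and that variation may be technical. Total RNA of each sample was measured on 1 Affymetrix rat expression array.

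The arrays did not group by coating. Over the 9519 tested probe sets, fibronectin replicate 2 correlated with the other arrays at r = 0.775 to 0.794, and the other 3 arrays with each other at 0.847 to 0.910; these are correlations across probe sets, which are not independent replicates. The ratio of 3' to 5' signal of the Gapdh control transcript was 1.15 to 1.64 on the controls and 3.52 to 6.02 on the fibronectin arrays, and that of beta-actin was 1.40 to 1.46 and 6.29 to 13.0. The labelled cell type was checked by its markers: all 12 cardiac myocyte markers on the array were bright enough to be tested. The log2 of their summed signal, which the brightest genes dominate, was 16.26 to 16.40 on the controls and 16.51 to 16.54 on fibronectin. On the deposited scale it was 15.92 to 15.99 and 16.70 to 16.98. Of the 12, 8 were higher on fibronectin and 4 lower, Ttn without overlap, where 3652 of all 7101 genes were higher. On the deposited scale 1 of the 12 was lower. Markers of other cells were measured too. Of 11 fibroblast markers, 8 were lower on fibronectin. The log2 of their summed signal was 14.98 to 15.57 on the controls and 14.24 to 14.95 on fibronectin. On the deposited scale 7 of the 11 were lower and the sums, 14.68 to 15.21 and 14.53 to 15.24, overlapped. Of 5 smooth muscle markers 3 were higher (Cnn1, Des and, with overlap, Tagln), at 12.62 to 13.45 and 12.84 to 13.23. Des and the lower Acta2 are also on the list of cardiac target genes used below. So are all 12 tested cardiac myocyte markers, so the 2 lists are not separate evidence. All 5 tested leukocyte markers were lower, at 10.46 to 10.70 and 9.86 to 9.88, while Ptprc, the pan-leukocyte phosphatase, was left out as dim in both of its probe sets. Of 4 endothelial markers on the array only Kdr, the VEGF receptor, was tested, at 5.80 to 7.20 and 6.72 to 6.80. Several of the factors described here, Gata6, Hand2, Mef2c and Srf among them, are also made by fibroblasts or vascular cells, and fewer cells of a type and less RNA per cell cannot be told apart in such bulk samples. The part of these markers and of the 3' to 5' ratios in the results was not tested.

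Signals below are log2 of the quantile-normalized intensity, a scale on which a step of 1 is a doubling, and values under a floor of 4.55 were raised to it. Of the 16 probe sets, 14 passed the filter on dim signals and were tested, covering 8 genes. Both Hand1 probe sets were dim and not tested. In limma's test none of the 14 passed a Benjamini-Hochberg adjusted p of 0.05, as none of all 9519 did (0.00%), and the members' adjusted p ran from 0.528 to 0.998. At an unadjusted p under 0.05 there was 1 of the 14, a Gata6 probe set, where 616 (6.47%) of all tested probe sets lay. In 4 of the 14 the fibronectin signals were both under the lower control (19.0% of all tested probe sets), and in 1 both were over the higher control (19.3%). Together that is 35.7% of the members, against 38.2% of all tested probe sets, so the share without overlap was near the background. Differences were positive for 7 probe sets and negative for 7 (51.2% of all tested probe sets were negative). Their median was -0.17, beside -0.02 for all tested probe sets, and 3 of the 14 differed by at least 1 in either direction, 2 of them without overlap (9.21% of all tested probe sets).

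**Figure D1:**
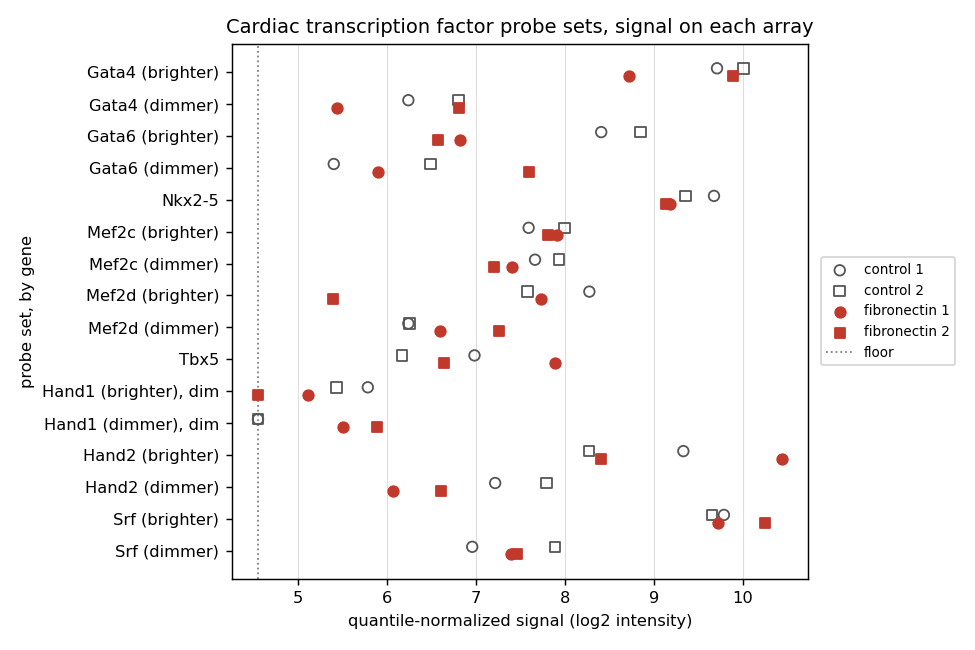
Log2 signal of each of the 16 transcription factor probe sets on each of the 4 arrays (horizontal axis), with open grey symbols for uncoated and filled red symbols for fibronectin-coated dishes, circles for replicate 1, squares for replicate 2 and a dotted line at the floor of 4.55. The brighter Gata6 probe set shows the widest gap between groups, 6.57 to 6.82 against 8.41 to 8.85, while in 9 of the 14 tested probe sets the groups overlap.

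Gata6 gave the largest difference and the smallest p among the factors. Its brighter probe set (1368827_at) measured 8.41 and 8.85 on the controls and 6.82 and 6.57 on fibronectin, or 370, 387, 123 and 91.6 in deposited intensity units. Both fibronectin arrays were thus far below both controls, and within each group the arrays lay close together. The group means were 8.63 ± 0.31 and 6.69 ± 0.17 (SD, n = 2 each), 3.82-fold lower on fibronectin. The log2 difference was -1.93 (SE 0.40; limma's Benjamini-Hochberg adjusted p = 0.528). Leaving out any single array kept it between -2.16 and -1.71. Without fibronectin replicate 1 the adjusted p in limma was 0.0404, in a fit where 337 probe sets passed and the controls alone gave the spread. With each other array left out it was 0.254, 0.711 and 1.00. The second Gata6 probe set (1375613_at) went the other way. It read 5.40 and 6.49 on the controls and 5.90 and 7.59 on fibronectin, so the groups overlapped, and differed by 0.80 (SE 0.78; limma's Benjamini-Hochberg adjusted p = 0.819). This positive value rested on fibronectin replicate 2, without which the difference was -0.05.

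Gata4, the best known GATA factor of the hypertrophic response, had lower mean values on fibronectin in both probe sets, carried by 1 array. The brighter probe set (1387894_at) read 9.71 and 10.01 on the controls, 8.72 on fibronectin replicate 1 and 9.89 on fibronectin replicate 2. Fibronectin replicate 2 lay between the controls, so the groups overlapped. The difference was -0.55 (SE 0.42; limma's Benjamini-Hochberg adjusted p = 0.785), and 0.03 without fibronectin replicate 1. The dimmer probe set (1370293_at), designed from the same sequence record according to the annotation, was also lowest on fibronectin replicate 1. It read 6.24 and 6.81 on the controls, 5.44 on fibronectin replicate 1 and 6.81 on fibronectin replicate 2. It differed by -0.40 (SE 0.71), or 0.29 without fibronectin replicate 1. The pair shared its sequence record, so the second probe set is no replicate of the first.

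Nkx2-5 and Tbx5, the homeodomain and T-box partners of Gata4, pointed in different directions. Nkx2-5 (1369987_at) read 9.68 and 9.36 on the controls and 9.18 and 9.14 on fibronectin, so both coated cultures were slightly below both controls. It was 1.28-fold lower, a difference of -0.36 (SE 0.30; limma's Benjamini-Hochberg adjusted p = 0.799). On the deposited scale the groups overlapped: the intensities were 882 and 542 on the controls and 740 and 456 on fibronectin. Tbx5 (1377139_at) read 6.98 and 6.17 on the controls and 7.89 and 6.64 on fibronectin. Its highest value was on fibronectin replicate 1, but fibronectin replicate 2 lay below control replicate 1. The difference was 0.69 (SE 0.60; limma's Benjamini-Hochberg adjusted p = 0.800), and 0.07 without fibronectin replicate 1.

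The MEF2 factors gave 4 probe sets, and the largest difference came from a single array. The brighter Mef2d probe set (1369851_at) read 8.27 and 7.58 on the controls, 7.74 on fibronectin replicate 1 and 5.40 on fibronectin replicate 2. Only fibronectin replicate 2 was low, and fibronectin replicate 1 lay between the controls. The mean difference was -1.36 (SE 0.75; limma's Benjamini-Hochberg adjusted p = 0.771). It was -0.19 when fibronectin replicate 2 was left out. Leaving out fibronectin replicate 1 instead left the low array alone against the controls, which then gave all of the spread. The difference was then -2.53 and the adjusted p in limma 0.0369, against 0.931 to 1.00 with any other array left out. The dimmer Mef2d probe set (1398427_at) read 6.24 and 6.25 on the controls and 6.60 and 7.26 on fibronectin. It was the 1 tested probe set of a factor with both fibronectin arrays above both controls. Its group means differed by 0.68 (SE 0.56, limma's Benjamini-Hochberg adjusted p = 0.797). Mef2c, the MEF2 factor needed for early heart formation, was close to level in its first probe set (1372332_at), at 7.59 and 8.00 on the controls and 7.91 and 7.81 on fibronectin. That is a difference of 0.06 (SE 0.38), and -0.14 without control replicate 1. Its second probe set (1373410_at) read 7.66 and 7.93 on the controls and 7.41 and 7.21 on fibronectin. Here both fibronectin arrays were below both controls, and the mean difference was -0.49 (SE 0.39; limma's Benjamini-Hochberg adjusted p = 0.794).

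The HAND factors also split by probe set. The brighter Hand2 probe set (1374451_at) read 9.33 and 8.27 on the controls, 10.44 on fibronectin replicate 1 and 8.40 on fibronectin replicate 2. Replicate 1 was the higher array in both groups, and the groups overlapped. The difference was 0.62 (SE 0.66; limma's Benjamini-Hochberg adjusted p = 0.826), and -0.40 without fibronectin replicate 1. The dimmer Hand2 probe set (1369817_at) read 7.22 and 7.80 on the controls and 6.07 and 6.60 on fibronectin. Both fibronectin arrays lay below both controls. Group means were 7.51 ± 0.41 and 6.34 ± 0.38 (SD, n = 2 each), 2.25-fold lower, with a difference of -1.17 (SE 0.51; limma's Benjamini-Hochberg adjusted p = 0.762), or -1.46 to -0.88 with 1 array left out. Hand1, which marks the left ventricle in the embryo, was near the floor throughout and is described only. Its brighter probe set (1375301_at) read 5.79 and 5.44 on the controls, 5.11 on fibronectin replicate 1 and the floor on fibronectin replicate 2. Its dimmer probe set (1370128_at) was at the floor on both controls and read 5.50 and 5.89 on fibronectin, at least 2.21-fold higher. Both Hand1 probe sets were without overlap, in opposite directions, as were 21.9% of all dim probe sets in either direction.

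Srf, the factor that carries actin dynamics and serum signals to muscle genes, had small differences in both probe sets. Its brighter probe set (1388842_at) read 9.79 and 9.65 on the controls and 9.72 and 10.25 on fibronectin. Fibronectin replicate 2 alone was above the controls, and the difference of 0.26 (SE 0.31; limma's Benjamini-Hochberg adjusted p = 0.845) was -0.0014 without it. The dimmer probe set (1374829_at) read 6.96 and 7.89 on the controls and 7.40 and 7.46 on fibronectin, so both fibronectin arrays lay between the controls, with a difference of 0.01 (SE 0.46). The controls themselves were 0.93 apart, and with 1 of them left out the difference was -0.46 or 0.47. The Srf gene is known to be controlled by its own protein through CArG boxes, the sites that SRF binds, and its promoter is shown for that reason. The 250 bases before the start of the RefSeq transcript follow, 5' to 3', in the GRCr8 assembly, with matches to the CArG box and to GATA, on either strand, in capitals. No capitals of different matches overlap.

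Srf (GRCr8, chr9:21923826-21924075, + strand): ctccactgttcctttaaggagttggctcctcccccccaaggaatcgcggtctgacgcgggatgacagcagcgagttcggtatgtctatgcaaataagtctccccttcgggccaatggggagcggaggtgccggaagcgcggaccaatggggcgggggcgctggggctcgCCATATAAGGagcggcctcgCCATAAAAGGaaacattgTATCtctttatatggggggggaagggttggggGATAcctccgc

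Both CArG boxes of this window, CCATATAAGG and CCATAAAAGG, begin 81 and 61 bases before the start. A CArG box was found in the same 250 bases of 1.5% of 33469 RefSeq promoters, on either strand. RefSeq promoters were matched for 8 of the 10 factors, and of these Srf alone held a CArG box. Mef2a alone held a MEF2 box, at 40 to 31 bases before the start, where 0.523% of all promoters hold one. GATA was found in 4 of the 8, beside 55.9% of all promoters, AAGTG, a core bound by Nkx2-5, in 1, beside 40.6%, and CANNTG, the E-box bound by HAND proteins, in 3, beside 65.5%. AGGTGT, a core bound by T-box proteins, was in none of the 8 and in 11.6% of all promoters. Such matches describe letters and not binding, which was not measured.

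**Figure D2:**
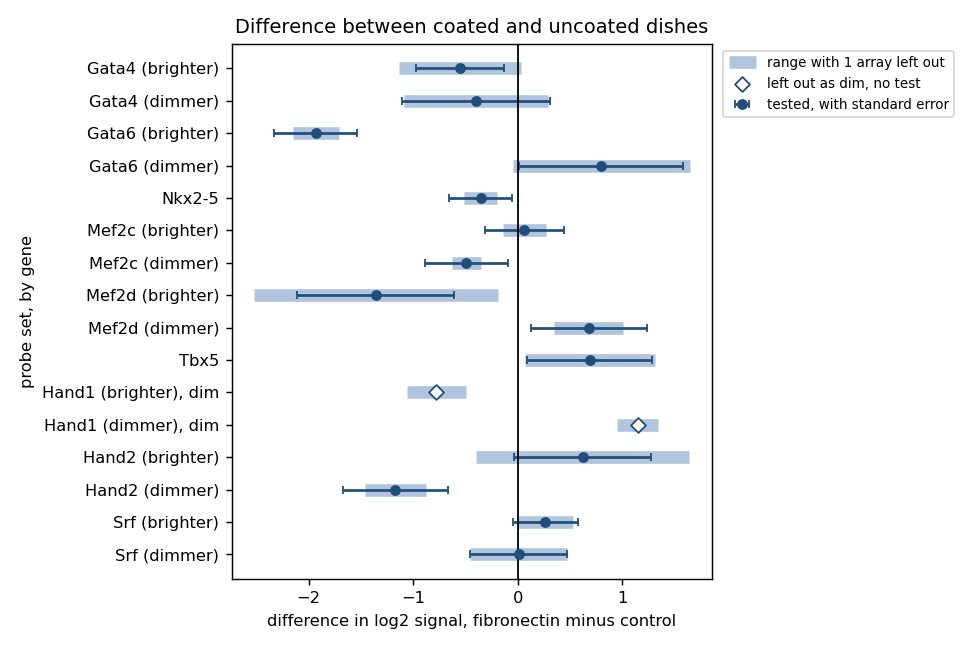
Difference in log2 signal, fibronectin minus control, for the 16 transcription factor probe sets (points; bars are limma's standard errors for the 14 tested ones, and open diamonds are the dim Hand1 probe sets). Pale bars give the range of the difference with 1 array left out: it stays between -2.16 and -1.71 for the brighter Gata6 probe set and crosses 0 for 7 of the 14.

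Of the 6 genes with 2 tested probe sets, 4 had a positive difference in 1 and a negative one in the other (Gata6, Mef2c, Mef2d and Hand2). Gata4 and Srf did not. Of these 4, only Mef2d kept both signs with each array left out. The dimmer Gata6 probe set turned to -0.05 without fibronectin replicate 2. The first Mef2c probe set turned to -0.14 without control replicate 1, and the brighter Hand2 one to -0.40 without fibronectin replicate 1. Among all 753 genes with exactly 2 tested probe sets, 334 (44.4%) disagreed in sign. With only 6 genes the factors cannot be set apart from that share. The gap was widest for Gata6, where the brighter probe set lay 2.73 below the dimmer one on the log2 difference scale, followed by 2.04 for Mef2d and 1.79 for Hand2. The median size of the gap was 1.17 over the 6 genes and 0.65 over the 753. The 3' to 5' ratios given above differed between the same groups of arrays, with 3.52 to 6.02 against 1.15 to 1.64 for Gapdh, and where on its transcript each probe set lies was not used here; the part of either in these gaps was not tested.

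On the deposited scale without further normalization all 16 probe sets kept the sign of their difference. The sign of 7 of the 14 tested probe sets held with each array left out in turn, and that of the other 7 turned. Those that held were the brighter Gata6, Nkx2-5, the dimmer Mef2c, both Mef2d, Tbx5 and the dimmer Hand2 probe sets. Of these, only the brighter Mef2d and the Tbx5 probe sets had overlapping groups. Where groups do not overlap, leaving out 1 array cannot turn the sign. By array, 3 of the 14 had their lowest signal on fibronectin replicate 1 and 4 on fibronectin replicate 2. The brighter Mef2d probe set had the largest spread over the 4 arrays. The named probe sets most like it, by Euclidean distance of log2 signals centred on each probe set's mean, were those of Slc25a44 at 0.105, Entpd5 at 0.106 and Cnrip1 at 0.138. For Slc25a44 and Entpd5 fibronectin replicate 2 was at the floor. Over only 4 arrays, 76 named probe sets lay within a distance of 0.5, beside 9519 tested probe sets in all. The latter number includes probe sets without a single gene symbol, which were not searched. The pattern of a single low array was thus not particular to Mef2d.

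**Figure D3:**
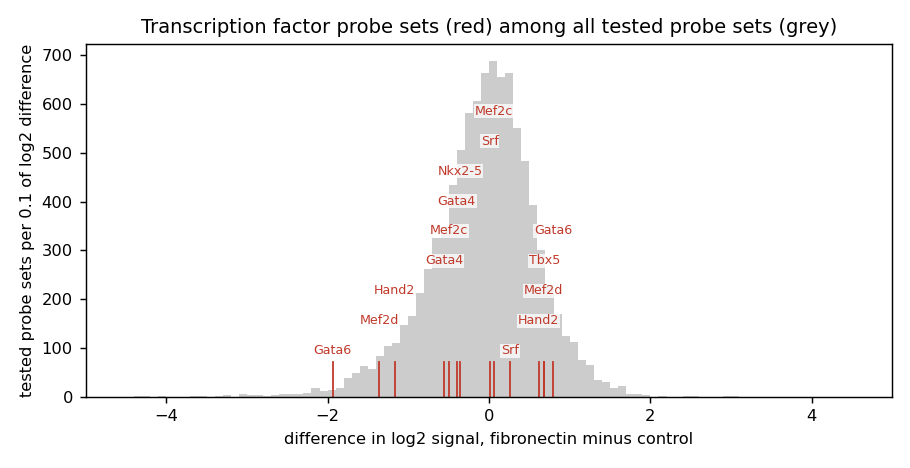
Histogram of the log2 difference, fibronectin minus control, for all 9519 tested probe sets (grey; vertical axis, probe sets per 0.1), with the 14 tested transcription factor probe sets as red ticks under their gene names, the height of the names having no meaning. The ticks run from -1.93 (Gata6) to 0.80 (Gata6), and 11 of the 14 lie within 1 of 0.

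The proteins that work with these factors were taken from a list of 60 cofactors, repressors and related factors, of which 42 were on the array and 35 had a tested probe set, each gene counted by its brightest. After Benjamini-Hochberg adjustment of limma's p-values 0 of the 35 passed, and 3 had an unadjusted p under 0.05 (5.68% of all 7101 genes did). Both fibronectin arrays were above both controls for 3 (20.6% of all genes) and below for 6 (17.2%). The median difference was -0.03, beside 0.02 for all genes. The smallest p belonged to Id2, an inhibitor that pairs with basic helix-loop-helix proteins and keeps them from DNA. It read 9.31 and 10.01 on the controls and 8.30 and 7.97 on fibronectin, a difference of -1.53 (SE 0.37; limma's Benjamini-Hochberg adjusted p = 0.575). Its dimmer probe set differed by -1.18, also without overlap. Id3, of the same family, read 8.51 on both controls and 7.65 and 8.18 on fibronectin, a difference of -0.60 (SE 0.37).

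Nfatc4, the calcineurin-controlled factor that binds Gata4, read 8.81 and 9.08 on the controls and 7.68 and 8.10 on fibronectin. That is a difference of -1.06 (SE 0.35; limma's Benjamini-Hochberg adjusted p = 0.718). Fhl2, a LIM protein that binds Srf, read 11.77 and 11.10 on the controls and 10.92 and 10.89 on fibronectin. It differed by -0.53 (SE 0.30), or -0.26 on the deposited scale, and by -0.95 in a dimmer probe set. Among higher values, Hdac1, a histone deacetylase, read 5.93 and 6.57 on the controls and 7.52 and 7.40 on fibronectin, a difference of 1.22 (SE 0.50; limma's Benjamini-Hochberg adjusted p = 0.756). Smarcd3, the heart subunit of the BAF chromatin remodelling complex, differed by 0.52 (SE 0.32), with both fibronectin arrays above both controls. Hopx, a homeodomain protein that restrains Srf, read 7.72 and 6.65 on the controls and 7.74 and 7.87 on fibronectin. It differed by 0.62 (SE 0.48), or 0.081 without control replicate 2. On the deposited scale the groups overlapped for Fhl2, Smarcd3 and Hopx. The Smarcd3 intensities there were 459 and 391 on the controls and 916 and 452 on fibronectin. Tbx2, a T-box repressor, differed by 0.86 (SE 0.82) with overlap, and by -0.62 in a probe set left out as dim.

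Genes that these factors are known to drive were taken from a list of 50, of which 47 were on the array and 40 had a tested probe set. After Benjamini-Hochberg adjustment of limma's p-values 0 of these passed, and 5 had an unadjusted p under 0.05, beside 5.68% of all genes. Both fibronectin arrays were above both controls for 11 (20.6% of all genes) and below for 7 (17.2%). The median difference was 0.05, beside 0.02 for all genes, and 0.32 on the deposited scale. Nppa, Nppb and Acta1, whose direction was known when they were chosen, stood above both controls on both fibronectin arrays. They belong to the fetal programme, as does Myh7, described below. Its brighter probe set overlapped between groups and its dimmer one was lower on fibronectin. Nppa, atrial natriuretic peptide, read 12.48 and 11.17 on the controls and 13.44 and 13.16 on fibronectin, and Nppb, B-type natriuretic peptide, 10.51 and 10.59 and then 11.11 and 12.32. Acta1, skeletal alpha-actin, read 10.87 and 11.45 and then 11.80 and 12.15. Their differences were 1.48 (SE 0.42), 1.17 (SE 0.40) and 0.81 (SE 0.30), and limma's Benjamini-Hochberg adjusted p was 0.684, 0.718 and 0.726. With 1 array left out the Nppa difference ran from 0.82, without control replicate 2, to 2.13, without control replicate 1. Limma's adjusted p was 1.00 in the former and 0.0249 in the latter fit. Nppb ran from 0.56 (adjusted p in limma 0.667) without fibronectin replicate 2 to 1.77 (0.0369) without fibronectin replicate 1. Acta1 was 0.52 without control replicate 1. In each of these fits the lone array was taken to vary like the other group.

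These promoters are the textbook sites of GATA factors, Nkx2-5 and Srf, and are shown beside the factors' own values. The 250 bases before each RefSeq start follow, 5' to 3', with GATA, AAGTG and CArG boxes in capitals, whichever strand they match.

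Nppa (GRCr8, chr5:163711934-163712183, + strand): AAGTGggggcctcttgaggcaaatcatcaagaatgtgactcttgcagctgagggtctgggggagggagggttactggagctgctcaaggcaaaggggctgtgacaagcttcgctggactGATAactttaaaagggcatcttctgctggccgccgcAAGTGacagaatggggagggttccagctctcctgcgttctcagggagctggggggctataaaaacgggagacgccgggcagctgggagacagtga

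Nppb (GRCr8, chr5:163699758-163700007, + strand): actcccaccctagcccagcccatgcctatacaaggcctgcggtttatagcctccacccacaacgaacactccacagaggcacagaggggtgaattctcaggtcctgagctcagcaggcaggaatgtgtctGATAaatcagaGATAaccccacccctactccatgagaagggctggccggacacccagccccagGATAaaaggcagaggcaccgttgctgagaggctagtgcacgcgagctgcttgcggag

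Acta1 (GRCr8, chr19:68784195-68784444, - strand): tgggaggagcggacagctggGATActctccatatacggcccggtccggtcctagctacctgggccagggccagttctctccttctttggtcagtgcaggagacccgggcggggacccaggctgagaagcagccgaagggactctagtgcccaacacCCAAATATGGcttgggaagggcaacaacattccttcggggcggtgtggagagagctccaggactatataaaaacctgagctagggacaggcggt

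GATA occurred 1 time in the Nppa window and 3 times in that of Nppb, where 2 of the matches begin 120 and 109 bases before the start. AAGTG occurred 2 times in Nppa, 95 bases before the start and at the window's far end. Acta1 held 1 CArG box, CCAAATATGG, 94 bases before the start. Beside these targets, the Gata4 probe sets differed by -0.55 and -0.40, Nkx2-5 by -0.36 and the Srf probe sets by 0.26 and 0.01, none past limma's Benjamini-Hochberg threshold.

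Other targets had lower values on fibronectin. Atp2a2, which pumps calcium back into the sarcoplasmic reticulum, read 13.43 and 12.68 on the controls and 12.30 and 11.94 on fibronectin. It differed by -0.94 (SE 0.32; limma's Benjamini-Hochberg adjusted p = 0.718), and by -0.35 and -1.53 in its dimmer tested probe sets. The first of these values was -0.33 on the deposited scale, -0.37 with arrays shifted to the same median and -0.56 without control replicate 1. Vcl, which encodes the adhesion protein vinculin and is driven by Srf, read 11.63 and 12.35 on the controls, 8.89 on fibronectin replicate 1 and 11.40 on fibronectin replicate 2. It differed by -1.84 (SE 0.71), or -0.59 without fibronectin replicate 1, while another Vcl probe set gave -0.05. Ttn, the giant sarcomere protein titin, differed by -0.92 (SE 0.41), or -0.45 without control replicate 2, and Vegfa, the vascular growth factor, by -0.77 (SE 0.37), both without overlap. On the deposited scale the Vegfa groups overlapped, at 652 and 322 on the controls and 340 and 234 on fibronectin. A dimmer tested Vegfa probe set differed by -0.53 (SE 0.66) with overlap. Ryr2, the calcium release channel, read 7.63 and 6.81 on the controls and 8.83 and 7.55 on fibronectin, a difference of 0.97 (SE 0.54) with overlap. Of the myosin heavy chains, Myh6 differed by 0.25 (SE 0.44), or -0.38 without fibronectin replicate 1, and Myh7 by 0.11 (SE 0.24), or -0.07 without control replicate 1. The near-level Myh7 value depended on the normalization: it was 0.83 on the deposited scale, where the intensities were 8749 and 12102 on the controls and 16241 and 20730 on fibronectin, and 0.79 with arrays shifted to the same median. The dimmer probe set of each, from the same sequence record as the brighter one according to the annotation, lay lower on fibronectin. For Myh6 the difference was -1.44, in a probe set left out as dim. The dimmer Myh7 probe set read 10.74 and 11.58 on the controls and 6.75 and 8.99 on fibronectin, without overlap. Its difference was -3.29 (SE 0.68, limma's Benjamini-Hochberg adjusted p = 0.528).

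**Figure D4:**
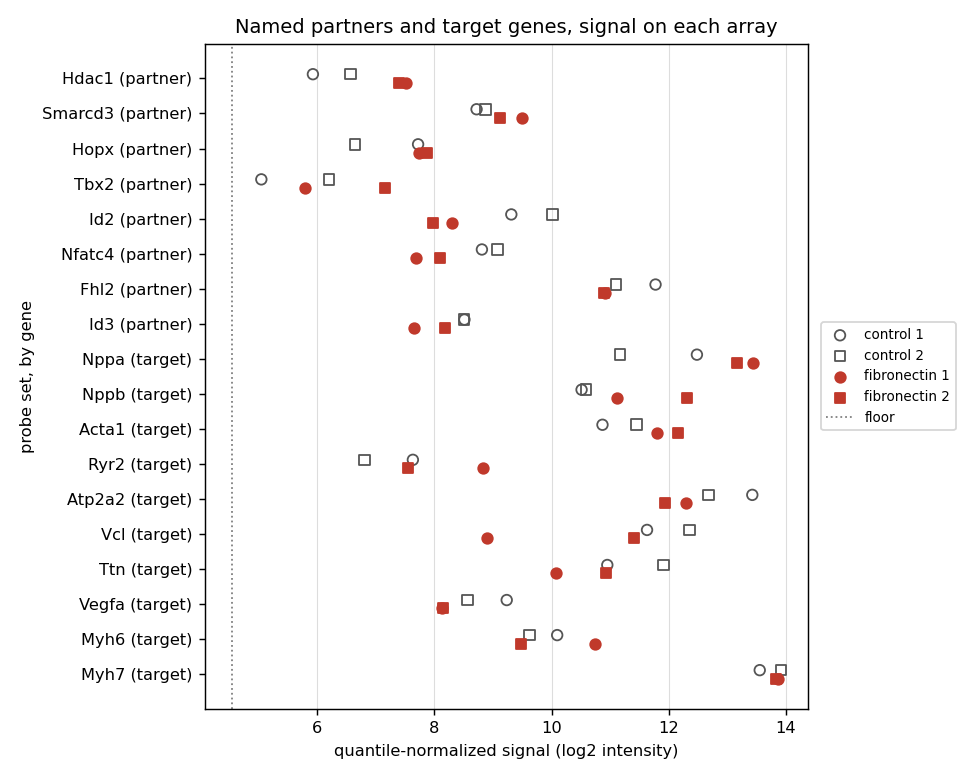
Log2 signal on each of the 4 arrays (horizontal axis) for the named partner and target genes, each by its brightest tested probe set, with open grey symbols for uncoated and filled red symbols for fibronectin-coated dishes, circles for replicate 1 and squares for replicate 2. Nppa sits at 13.16 and 13.44 on fibronectin above 11.17 and 12.48 on the controls, and Id2 at 7.97 and 8.30 below 9.31 and 10.01.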

How the data were processed

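The deposited table held 1 linear signal intensity per probe set and array. The sources used here do not say how the authors made these intensities. The smallest step between values was 0.1 to 0.233 on 3 arrays and 1.95 on fibronectin replicate 2, where dim values are coarsest. The 15875 probe sets were quantile normalized, 9 Affymetrix control probe sets were then left out, and values were raised to the 20th percentile (23.4) and converted to log2. The 40% with the lowest mean, 6347 probe sets, were left out as dim. The groups entered limma's lmFit and eBayes with a trend on intensity (limma 3.58.1, R 4.3.3), with Benjamini-Hochberg adjustment over 9519 probe sets and a threshold of 0.05, and checked on simulated data. With 2 arrays against 2, an exact permutation test cannot go below p = 0.333. For arrays, their number limits the precision. Gene names came from the platform annotation (12783 probe sets with 1 symbol, 312 with several). All member identifiers matched the GRCr8 RefSeq gene table, and promoters are RefSeq's.

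The members and lists were chosen with earlier results of these data known. Named were all member probe sets, the 4 partners and 4 targets with the smallest p in each direction, and Nppa, Nppb, Acta1, Myh6 and Myh7, each gene by its brightest tested probe set, plus the 3 probe sets nearest to the member of largest spread. Alternatives changed the normalization, the filter, the floor, the variance model and the replicate block, or left out 1 array.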

Additional observations from a re-analysis of the deposited data

How the results depend on the processing

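Without a further normalization the median difference of the target genes was 0.32, and with arrays shifted to the same median it was 0.27, beside 0.05. With 60% of probe sets left out, 9 of the factors' probe sets were tested, 3 were without overlap and their median was -0.36. The share without overlap over all probe sets kept by that filter is not given here. With an offset of 50 the dimmer Srf probe set (1374829_at) differed by -0.0074. The replicate numbers were not stated to pair the arrays, though deviations of same-numbered arrays correlated at 0.27 over probe sets. With the replicate number as a block, 234 probe sets passed limma's adjusted threshold, among them 1 of the factors' probe sets (the brighter Gata6), 1 partner (Id2) and 6 targets (Nppa, Nppb, Acta1, Atp2a2, Vcl and Ttn), on 1 residual degree of freedom before moderation.

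With 1 array left out, between 0 and 337 probe sets passed, of them 0 to 2 of the factors' probe sets and 0 to 1 of the target genes, and 9 to 11 of the factors' probe sets were without overlap, since fewer arrays overlap less often. The share of all tested probe sets without overlap in these fits is not given here, so the factors' number has no background beside it. The median difference ran from -0.33 to 0.021 for the factors, from -0.17 to 0.00064 for partners and from 2.4e-05 to 0.14 for targets. Single differences ran from -1.14 to 0.031 and from -1.09 to 0.29 for Gata4, from -0.050 to 1.65 for the dimmer Gata6 probe set, from -0.14 to 0.26 for Mef2c, from -0.40 to 1.64 for Hand2, from -0.0014 to 0.53 and from -0.46 to 0.47 for Srf, from -0.071 to 0.29 for Myh7 and from -0.38 to 0.89 for Myh6. The causes were not tested. Of 442 differences of named probe sets recomputed, 411 had a p: 388 of these kept their direction and side of the threshold, 12 newly passed and 11 turned their sign. The other 31, left out as dim in that setting, kept their sign. Changes of the filter, the variance model or the block leave a difference as it was, so its sign could not turn there.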
